A study of Mus musculus with 12 samples.

Results

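The genes described here are 6 genes of primed pluripotency and the epiblast, Fgf5, Pou3f1, Otx2, Zic2, Sox3 and Foxd3. They were taken by name from a table of 25759 genes in each of 12 RNAseq libraries, and all 6 are in every table. The libraries came from mouse HATX3 embryonic stem cells (ESCs), which carry an Xist allele that doxycycline switches on. Wild-type samples 1, 2 and 3 of these parental cells and the ΔCdk8 clones 8, 11 and 15 were each sampled in uninduced conditions and after 48 h of Xist expression, which gives 4 groups of 3 libraries. All groups, controls included, hold the inducible Xist allele and its transactivator. Each ΔCdk8 clone was isolated by limiting dilution after a small deletion around the start codon of both copies of Cdk8, the kinase of the mediator kinase module, and 1 of the 3 carries a small insertion. The parental line began as haploid cells and became diploid in culture, and the study calls it polyclonal. For a higher Xist level in wild-type cells by RT-PCR, the study gives this as the probable reason. It adds that some of the parental cells may have been differentiated. Clonal origin and the mutation thus cannot be told apart. Xist expression also causes cell loss in this line, and levels after induction are those of the cells that remained. The study's methods describe serum and leukaemia inhibitory factor medium, with Gsk3 and Mek inhibitors added for maintenance, and do not say whether the inhibitors were present in the sequenced cultures.

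ESCs in the naive state resemble the epiblast before implantation, and primed cells resemble it after implantation. On the way between these states, FGF signalling through ERK is active and naive factors are lost. Otx2 and Pou3f1 (also called Oct6) are transcription factors that come on early in this transition. Fgf5 is a secreted growth factor and the usual marker of primed cells and of the epiblast after implantation. Zic2 is a zinc finger factor, and Foxd3 a forkhead factor of the early epiblast and later of the neural crest. Sox3 is an X-linked relative of Sox2 that is used in the epiblast and in neural progenitors.

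The depth ranged from 22170087 to 60798578 gene reads in a library, and between 4.77% and 7.59% of them lay on introns. The values given below are TPM, which are exon reads per exon length scaled within each library, so that levels can be compared between genes. Cdk8 itself had between 51.5 and 74.2 TPM in the wild-type libraries and between 33.4 and 85.3 TPM in the ΔCdk8 libraries. Clone 15 had 85.3 and 84.9 TPM before and after induction, above every wild-type library, and clone 8 had 34.4 and 33.4 TPM, below them. With levels on both sides of the wild-type range, the exon reads of Cdk8 gave no check of the genotype labels, and the reason was not tested. Of all reads on Cdk8, 70.4% to 96.4% lay on introns, and since the fits below count exon and intron reads together, no fold change is given for it. By the study's western blots, which are not part of these tables, the clones had no detectable Cdk8 protein. By its qRT-PCR some transcript remained in the clone with the insertion, which the study proposes as a possible reason. Of 5 ESC markers, all were detected above 1 TPM, with a summed level between 1393 and 2786 TPM over the 12 libraries. Wild-type sample 1 stood apart from samples 2 and 3. Its summed level of 6 trophoblast markers was 128 and 129 TPM in its 2 libraries, against 25.4 to 46.5 TPM in the 4 libraries of samples 2 and 3. In the ΔCdk8 clones the same sum was 59.6 to 262 TPM. The trophoblast factor Hand1 had 35.5 and 23.1 TPM in the libraries of wild-type sample 1, 0.0568 to 0.598 TPM in those of samples 2 and 3, and 8.71 to 35.4 TPM in the ΔCdk8 libraries. Elf5, another trophoblast factor, was listed at 0 in 3 of the 4 libraries of samples 2 and 3 and at 1.24 and 1.35 TPM in those of sample 1. The summed level of the 6 genes ran the other way, at 68.8 TPM in uninduced wild-type sample 1 and 227 and 231 TPM in samples 2 and 3. Among the uninduced clones, clone 11 had the lowest trophoblast sum (59.6 TPM) and the highest sum of the 6 genes (70.6 TPM). The part of these markers in the differences below was not tested.

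On GRCm38, Fgf5 (ENSMUSG00000029337) lies on the forward strand of chromosome 5 from 98254184 to 98277030. Pou3f1 (ENSMUSG00000090125) lies on the forward strand of chromosome 4 from 124656807 to 124660655, and Foxd3 (ENSMUSG00000067261) on the same strand from 99656299 to 99658622. Otx2 (ENSMUSG00000021848) is on the reverse strand of chromosome 14 from 48657677 to 48673819, and Zic2 (ENSMUSG00000061524) on the forward strand of the same chromosome from 122475435 to 122479852. Sox3 (ENSMUSG00000045179) is on the reverse strand of chromosome X from 60891366 to 60893430. Pou3f1, Sox3 and Foxd3 are genes of a single exon in the tables. RefSeq promoter entries on GRCm38.p6 were matched by symbol for 3 of the 6 genes, and because the genes moved together over the libraries the 250 bases before a RefSeq transcript start are shown for each. They are chr5:98253934-98254183 (forward strand), chr4:99656049-99656298 (forward strand) and chr14:48667645-48667894 (reverse strand), the last being the most upstream of 4 Otx2 entries. The Otx2 stretch lies inside the gene as the tables span it, since their gene starts further upstream, at 48673819 on the reverse strand. Capitals mark a match to 1 of 4 motifs searched on both strands, the octamer ATGCAAAT, the SOX motif ACAAAG, the OTX motif TAATCC and the TATA box TATAAA.

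Fgf5: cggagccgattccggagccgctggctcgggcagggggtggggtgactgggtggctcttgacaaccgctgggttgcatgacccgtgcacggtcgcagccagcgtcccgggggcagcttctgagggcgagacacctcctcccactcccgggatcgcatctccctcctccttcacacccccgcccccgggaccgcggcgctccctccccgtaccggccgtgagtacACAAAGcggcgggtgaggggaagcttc
Foxd3: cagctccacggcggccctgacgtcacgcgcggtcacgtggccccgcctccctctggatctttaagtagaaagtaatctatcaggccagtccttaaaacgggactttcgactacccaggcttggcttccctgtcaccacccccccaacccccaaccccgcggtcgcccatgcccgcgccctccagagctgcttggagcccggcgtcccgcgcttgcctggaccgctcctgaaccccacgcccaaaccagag
Otx2: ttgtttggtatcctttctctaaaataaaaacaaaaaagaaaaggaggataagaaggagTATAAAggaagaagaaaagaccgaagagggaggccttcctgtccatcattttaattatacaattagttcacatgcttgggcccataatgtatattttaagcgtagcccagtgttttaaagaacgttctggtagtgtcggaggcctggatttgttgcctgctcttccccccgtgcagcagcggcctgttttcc

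The Fgf5 stretch held the SOX motif on its forward strand, starting 27 bases before the start, the Otx2 stretch held a TATAAA starting 192 bases before it, and the Foxd3 stretch held none of the 4. The motifs did not overlap each other. Among 32817 promoter stretches of the same length, 1.603% held the octamer, 16.5% the SOX motif, 6.25% the OTX motif and 12.4% TATAAA. In base composition Otx2 stood apart from Fgf5 and Foxd3. The Fgf5 stretch had 24 CG pairs and 70.8% G and C, and the Foxd3 stretch had 21 CG pairs and 65.6%. The Otx2 stretch had 6 CG pairs, the median of all promoters, and 42% G and C. Fewer CG pairs were found in 88.0% of all promoters than in Fgf5 and in 83.7% than in Foxd3.

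In uninduced wild-type cells, the transcription factors Otx2, Zic2 and Pou3f1 had the highest levels of the 6 genes, with 65.7±34.3, 48.2±27.0 and 38.4±16.9 TPM (mean±s.d., n = 3). Foxd3 followed with 12.8±8.39 TPM, and Fgf5 and Sox3 were at 5.22±4.21 and 5.21±3.89 TPM. Of the neighbours in this order, only Pou3f1 and Foxd3 did not overlap in their libraries. Otx2 was above Zic2 in 3 of 3 libraries, and Fgf5 was above Sox3 in 1 of 3. In uninduced ΔCdk8 cells Otx2 was again the highest, at 19.8±8.33 TPM, and every library was above the 10.8±2.16 TPM of Zic2. The lowest there were Sox3 at 0.874±0.665 and Fgf5 at 0.627±0.410 TPM, which overlapped. After induction the highest gene was Zic2 at 36.7±22.8 TPM in wild-type cells and Otx2 at 10.2±6.90 TPM in ΔCdk8 cells, and neither was separated from the next gene.

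**Figure D1:**
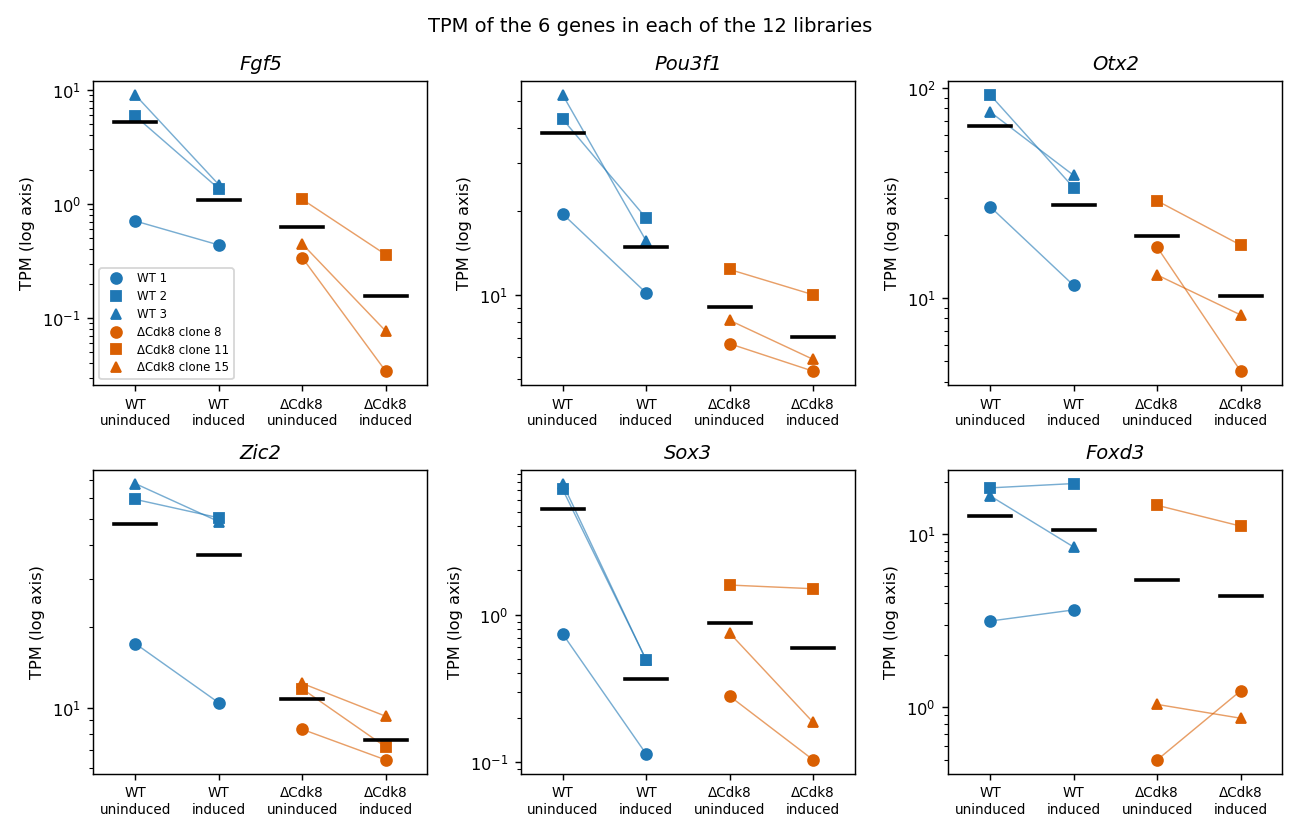
TPM of each gene (vertical axis, log scale) in the 4 groups, with 1 point per library, a line joining the uninduced and induced library of the same wild-type number or clone, and a black bar at the group mean. Wild-type sample 1 (blue circles) is the lowest wild-type library for 6 of 6 genes in both conditions, and clone 11 (orange squares) is the highest ΔCdk8 library for 5 of 6. The share of all genes with these orders was not counted.

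The 6 genes mostly shared the lowest wild-type library and the highest clone. Wild-type sample 1 was the lowest of the 3 wild-type libraries for 6 of 6 genes, in uninduced as in induced conditions. Clone 11 was the highest ΔCdk8 library for 5 of 6 genes in both conditions, with Zic2 as the exception. The share of all genes with these orders was not counted. Over 14006 genes, libraries of the same wild-type number also deviated together (r of 0.487 to 0.640). Those of the same clone did so over 14832 genes (r of 0.759 to 0.853). Within uninduced wild-type cells the highest library exceeded the lowest by 12.8-fold for Fgf5, 10.5-fold for Sox3, 5.88-fold for Foxd3, 3.92-fold for Zic2, 3.41-fold for Otx2 and 2.68-fold for Pou3f1. Among uninduced ΔCdk8 clones the widest range was that of Foxd3, at 29.5-fold, and the narrowest that of Zic2, at 1.48-fold. The mean of wild-type samples 2 and 3 was 10.5-fold that of sample 1 for Fgf5 and 2.44-fold for Pou3f1.

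The comparison of ΔCdk8 with wild-type cells in uninduced conditions asks how expression differed between the mutant clones and the parental cells before Xist is switched on. The mean of all 6 genes was lower in ΔCdk8 cells, by 2.36-fold for Foxd3 to 8.33-fold for Fgf5. For Pou3f1 and Zic2 every clone was below every wild-type library, a pattern found for 6.79% of the 14646 genes tested. A gene was called with a fold change over 2 and an adjusted p under 0.01, where p came from the quasi-likelihood test of edgeR and was adjusted by Benjamini-Hochberg over all genes. None of the 6 was called, against 0% of all genes called lower. At an unadjusted p under 0.05, 5 of 6 passed and were lower, as did 2982 of the 14646 genes in either direction (20.4%). The study instead used a Wald test at these thresholds, and reports genes called in both directions. DESeq2's Wald test called 264 of the 14646 genes higher and 122 lower. Of the 6 genes it called 4 lower (Fgf5, Pou3f1, Otx2 and Zic2), against 0.833% of all genes. The count moved with the library left out, and so did the share of all genes called lower by DESeq2. It was 6 of the 6 genes without clone 11 (3.54% of all genes) and 5 without wild-type sample 1 (1.86%). It was 2 without clone 8 (0.377%) and 2 without clone 15 (0.562%), and 1 without wild-type sample 2 (0.205%) and 1 without sample 3 (0.186%).

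Fgf5, the primed growth factor, had 0.708, 5.90 and 9.04 TPM in uninduced wild-type samples 1, 2 and 3 and 0.338, 1.10 and 0.446 TPM in clones 8, 11 and 15. Clone 11 was above wild-type sample 1, so that the groups overlapped, while samples 2 and 3 were well above every clone. The log2 fold change was −3.14 (standard error, s.e., 0.91, adjusted p = 0.163 by edgeR, 0.00510 by DESeq2).

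Pou3f1 had 19.6, 43.0 and 52.5 TPM in the uninduced wild-type samples and 6.69, 12.4 and 8.12 TPM in the clones. The groups did not overlap, and wild-type sample 1 was nearest to the clones. For this POU factor the log2 fold change was −2.21 (s.e. 0.43, adjusted p = 0.124 by edgeR, 4.2e-05 by DESeq2).

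Otx2, a homeodomain factor, had 27.2, 92.9 and 77.04 TPM in wild-type samples and 17.5, 29.1 and 12.9 TPM in the clones. Clone 11 was slightly above wild-type sample 1. Its log2 fold change was −1.87 (s.e. 0.52, adjusted p = 0.154 by edgeR, 0.00626 by DESeq2).

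Zic2 had 17.3, 59.3 and 67.9 TPM in wild-type samples and 8.33, 11.8 and 12.3 TPM in the clones. The clones lay close together and below every wild-type library. The log2 fold change of this zinc finger gene was −2.34 (s.e. 0.50, adjusted p = 0.128 by edgeR, 0.000132 by DESeq2).

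Sox3 had 0.741, 7.11 and 7.79 TPM in wild-type samples and 0.280, 1.59 and 0.751 TPM in the clones. Clones 11 and 15 were above wild-type sample 1, whose level rests on 19 reads. For this SOX factor it was −2.68 on the log2 scale (s.e. 0.97, adjusted p = 0.202 by edgeR, 0.0353 by DESeq2).

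Foxd3 had 3.15, 18.5 and 16.7 TPM in wild-type samples and 0.498, 14.7 and 1.04 TPM in the clones. Clone 11 lay within the wild-type range, while clones 8 and 15 were below every wild-type library. Its log2 fold change between genotypes was −1.27 (s.e. 1.25, adjusted p = 0.557 by edgeR). Without clone 11 it was −4.33 (s.e. 0.90, adjusted p = 0.0386 by edgeR).

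The size of these differences depended on single libraries. Sample 1 was the lowest wild-type library for each gene, so that leaving it out had to move every log2 fold change further from 0. It became −3.65 for Fgf5, −2.53 for Pou3f1, −2.25 for Otx2, −2.75 for Zic2, −3.20 for Sox3 and −1.73 for Foxd3. Clone 11 was the highest clone for 5 of the 6, and without it the values were −3.95 for Fgf5, −2.63 for Pou3f1, −2.36 for Otx2, −2.53 for Zic2 and −3.63 for Sox3. In either case 4 of the 6 genes had an adjusted p under 0.05 in edgeR and 0 passed the 0.01 threshold. Of all genes, 0.747% were lower at an adjusted p under 0.05 without sample 1 and 5.99% without clone 11. Leaving out 1 of the other 4 libraries gave log2 fold changes from −2.49 to −3.06 for Fgf5, −1.93 to −2.12 for Pou3f1, −1.53 to −1.75 for Otx2, −2.02 to −2.36 for Zic2, −2.24 to −2.53 for Sox3 and −0.72 to −1.05 for Foxd3. The Foxd3 value of −0.72 was that without clone 8. In these 4 fits the adjusted p of the 6 genes in edgeR lay between 0.262 and 0.805.

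After 48 h of Xist expression the same genotypes were compared again, with other libraries. The mean of 5 of 6 genes was lower in ΔCdk8 cells, by 2.11-fold for Pou3f1 to 6.97-fold for Fgf5, and Sox3 was the exception. Every clone was below every wild-type library for Fgf5, Pou3f1 and Zic2, against 10.1% of the 14143 genes tested. None was called by edgeR, against 0% of all genes called lower, and 4 of 6 had an unadjusted p under 0.05, as did 3668 of the 14143 genes (25.9%). DESeq2 called Zic2 alone, against 1.98% of all genes. It called 5 of the 6 genes without clone 11 (6.2% of all genes) and 3 without wild-type sample 1 (2.35%). Without clone 8 (1.18%) or clone 15 (1.32%) it called 1, and without wild-type sample 2 (1.02%) or sample 3 (0.552%) it called 0.

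Induced Zic2 levels were 10.4, 50.7 and 49.0 TPM in wild-type samples 1, 2 and 3 and 6.41, 7.16 and 9.31 TPM in clones 8, 11 and 15. Samples 2 and 3 were far above every clone, while sample 1 was just above clone 15. Between genotypes the log2 fold change was −2.46 (s.e. 0.57, adjusted p = 0.0689 by edgeR, 0.000190 by DESeq2). Fgf5 had 0.436, 1.36 and 1.48 TPM in induced wild-type samples and 0.0341, 0.359 and 0.0766 TPM in the clones, of which clones 8 and 15 rest on 2 exon reads each. In the fit its log2 fold change was −2.71 (s.e. 0.95, adjusted p = 0.134 by edgeR).

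Induced Pou3f1 levels were 10.2, 18.9 and 15.7 TPM in wild-type samples and 5.33, 10.04 and 5.88 TPM in the clones. Clone 11 was just below wild-type sample 1. On the log2 scale the difference was −1.22 (s.e. 0.39, adjusted p = 0.117 by edgeR). Otx2 had 11.5, 33.6 and 38.4 TPM in induced wild-type samples and 4.49, 17.9 and 8.32 TPM in the clones, and the groups overlapped through clone 11. The fitted log2 fold change was −1.59 (s.e. 0.63, adjusted p = 0.168 by edgeR).

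Induced Foxd3 levels were 3.66, 19.6 and 8.44 TPM in wild-type samples and 1.25, 11.1 and 0.866 TPM in the clones. As before induction, clone 11 was within the wild-type range and the other clones were below it. This gave a log2 fold change of −1.34 (s.e. 1.06, adjusted p = 0.436 by edgeR). Sox3 had 0.113, 0.494 and 0.491 TPM in induced wild-type samples and 0.103, 1.50 and 0.186 TPM in the clones. Its highest library was clone 11, and all others were below 0.5 TPM. The Sox3 difference was 0.58 on the log2 scale (s.e. 1.10, adjusted p = 0.755 by edgeR) and turned to −1.64 without clone 11. Leaving out that clone, which was the highest induced clone for 5 of 6 genes, also moved Foxd3 to −3.55 (adjusted p = 0.0334 by edgeR), Fgf5 to −4.40 (adjusted p = 0.0259), Otx2 to −2.40 (adjusted p = 0.0385) and Pou3f1 to −1.67 (adjusted p = 0.0264), none of them past the threshold. Without clone 15 the Sox3 difference was 1.05 and without wild-type sample 1 it was 0.14, while Foxd3 was −0.52 without wild-type sample 2 and −0.82 without clone 15.

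**Figure D2:**
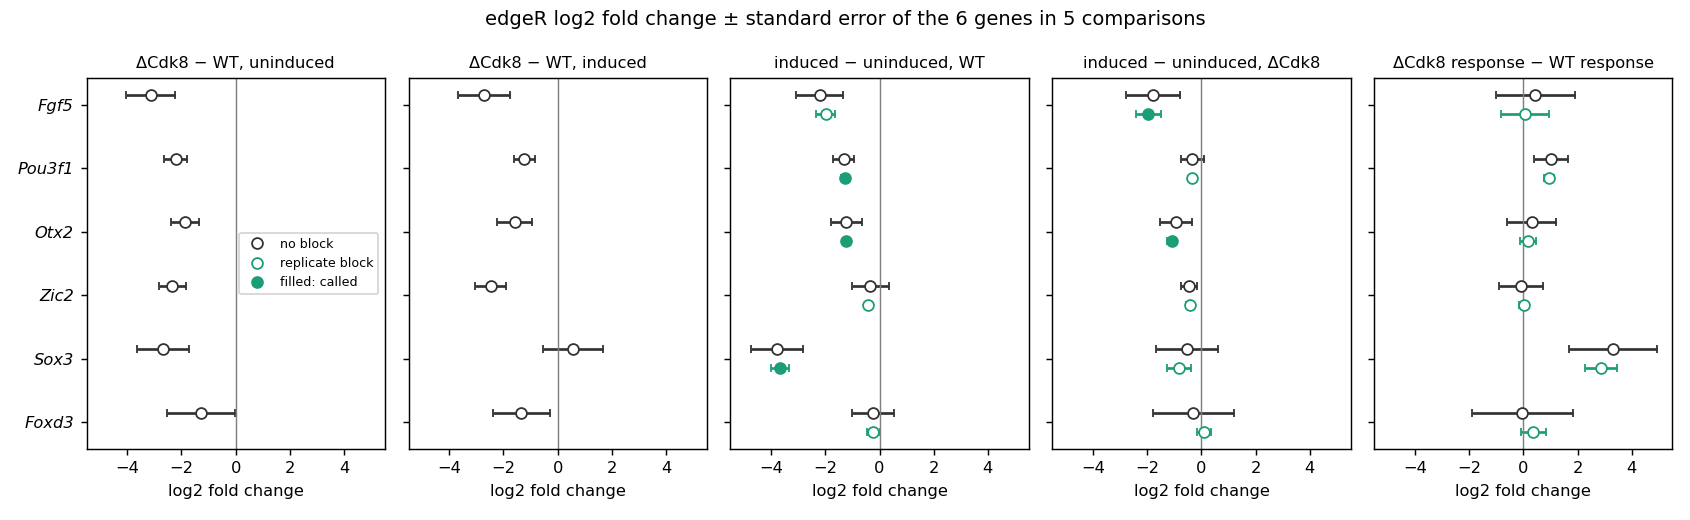
Log2 fold change with its standard error (bars) from edgeR for the 6 genes in 5 comparisons, without a block (black) and with the wild-type number or clone as a block (green), where filled points passed the threshold. Without the block no point is filled, and with it Pou3f1, Otx2 and Sox3 are called in wild-type cells and Fgf5 and Otx2 in ΔCdk8 cells.

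No group received doxycycline without the inducible Xist allele, so effects of doxycycline and of Xist cannot be told apart. The comparison of induced with uninduced wild-type cells asks how the 6 genes differ after 48 h of induction. It uses the same uninduced wild-type libraries as the genotype comparison above, so that a high level in them enters both. Of the 6 genes, 5 were lower in 3 of 3 induced libraries than in the uninduced library of the same number, against 29.4% of all genes tested. Without a block edgeR called none of them, against 1.01% of 14006 genes called lower, and 3 of 6 had an unadjusted p under 0.05, as did 2969 of the 14006 genes (21.2%). Libraries of the same wild-type number deviated together, and with the number as a block edgeR called Pou3f1, Otx2 and Sox3 lower, against 2.48% of all genes. DESeq2 without a block called Pou3f1 and Sox3, against 3.14%. Without wild-type sample 1, edgeR called Pou3f1, Fgf5, Otx2 and Sox3 with no block, against 2.63%, and without sample 2 or sample 3 it called none, as for all genes (0% called lower in both). The blocked fit called 4 without sample 1 (5.12% of all genes), 2 without sample 3 (1.83%) and 0 without sample 2 (0.292%).

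Sox3 had the steepest fall. Its level in induced over uninduced libraries was 0.153, 0.0695 and 0.0630 in wild-type samples 1, 2 and 3, and induced and uninduced libraries did not overlap. The value of sample 1 rests on 3 induced reads and has a 95% exact interval of 0.0290 to 0.519, for counting error only. The log2 fold change was −3.79 (s.e. 0.97, adjusted p = 0.0798 by edgeR) and with the block −3.68 (s.e. 0.33, adjusted p = 0.00212). Sox3 lies on the chromosome that carries Xist, and 52.3% of the 480 X-linked genes tested were called lower in the same blocked fit. Among X-linked genes with a mean of at least 1 TPM in uninduced wild-type libraries, the median ratio was 0.342, 0.328 and 0.272 in samples 1, 2 and 3. In sample 1, 18.5% of these genes had a lower ratio than Sox3, in sample 2 9.39% and in sample 3 9.84%. The 3 expressed genes within 1 Mb of Sox3 had a median induced over uninduced ratio of 0.183 in wild-type means.

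The autosomal Pou3f1 and Otx2 also fell with the block. The Pou3f1 ratio was 0.520, 0.440 and 0.298 in samples 1, 2 and 3, and its highest induced library was below its lowest uninduced one. Its log2 fold change was −1.33 (s.e. 0.40, adjusted p = 0.119 by edgeR) and with the block −1.27 (s.e. 0.14, adjusted p = 0.00396). The Otx2 ratio was 0.422, 0.361 and 0.499, an even response within pairs, although the groups overlapped through sample 1. Its log2 fold change was −1.23 (s.e. 0.58, adjusted p = 0.289 by edgeR) and with the block −1.23 (s.e. 0.11, adjusted p = 0.00203). The Fgf5 ratio was 0.616, 0.231 and 0.163, smaller in samples 2 and 3, where the uninduced level was high. Its log2 fold change of −2.21 (s.e. 0.87, adjusted p = 0.209 by edgeR) became −1.98 with the block (s.e. 0.34, adjusted p = 0.0141), which missed the threshold.

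Zic2 and Foxd3 did not pass in wild-type cells. The Zic2 ratio was 0.603, 0.855 and 0.723, or 0.727±0.126 (mean±s.d., n = 3), with a log2 fold change of −0.34 (s.e. 0.69, adjusted p = 0.835 by edgeR) and −0.42 with the block (adjusted p = 0.0536). The Foxd3 ratio was 1.16, 1.06 and 0.507, below 1 in sample 3 alone. Its log2 fold change was −0.24 (s.e. 0.78, adjusted p = 0.900 by edgeR).

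In ΔCdk8 cells 5 of 6 genes were also lower in 3 of 3 induced clones than in the same clones uninduced, against 25.3% of genes tested. Without a block edgeR called none of them, against 0% of 14832 genes called lower, and none had an unadjusted p under 0.05, against 2.64% of all genes. DESeq2 called none, against 0.243%, and gave no p for Foxd3. With the clone as a block, edgeR called Fgf5 and Otx2 lower, against 1.27%. That count was 2 without clone 11 (1.7% of all genes), 1 without clone 15 (1.25%) and 0 without clone 8 (1.11%). Fgf5 had a blocked log2 fold change of −1.96 (s.e. 0.47, adjusted p = 0.00990). Its induced over uninduced ratio was 0.101 in clone 8, 0.328 in clone 11 and 0.172 in clone 15, and the ratios of clones 8 and 15 have 95% exact counting intervals of 0.0114 to 0.418 and of 0.0193 to 0.717. The Otx2 ratio was 0.257, 0.615 and 0.645 in clones 8, 11 and 15. Its blocked log2 fold change was −1.09 (s.e. 0.17, adjusted p = 0.000155), the smallest adjusted p of the 6 genes in this comparison.

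The other 4 genes were not called in the clones. The Pou3f1 ratio was 0.797, 0.811 and 0.724, or 0.777±0.0469 (mean±s.d., n = 3), with a blocked log2 fold change of −0.34 (adjusted p = 0.0577 by edgeR). The Zic2 ratio was 0.770, 0.609 and 0.755, close to that of wild-type cells, with a blocked log2 fold change of −0.44 (adjusted p = 0.0307). For Sox3 the ratio was 0.369, 0.944 and 0.247 in clones 8, 11 and 15, while the median of X-linked genes was 0.569, 0.608 and 0.591. Few reads stand behind these ratios, and the 95% exact counting intervals of clones 8 and 15, from 0.103 to 1.10 and from 0.0625 to 0.716, both include the X-linked median. Sox3 itself is below the mean of 1 TPM that the X-linked genes in this median had to reach. Its blocked log2 fold change was −0.84 (s.e. 0.44, adjusted p = 0.253 by edgeR). The Foxd3 ratio was 2.51, 0.758 and 0.832, with no shared direction.

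Whether the response to induction differed between the genotypes was tested by the interaction over all 12 libraries. None of the 6 genes was called by edgeR, against 0% of 15137 genes in either direction, or by DESeq2, against 0.218%. None had an unadjusted p under 0.05 in edgeR (3.88% of all genes did) and 1 did in DESeq2, as did 741 of the 15137 genes. With the number or clone as a block, 0.998% of all genes were called and again none of the 6. The largest blocked differences were those of Sox3, 2.87 on the log2 scale (s.e. 0.60, adjusted p = 0.0240 by edgeR), and Pou3f1, 0.95 (s.e. 0.18, adjusted p = 0.0161). Both are positive, which is a less negative change in ΔCdk8 cells, and both miss the adjusted p of 0.01. Without wild-type sample 1 the blocked fit called both, against 3.84% of all genes. The blocked interaction was 0.07 (s.e. 0.89) for Fgf5, 0.17 (s.e. 0.29) for Otx2, 0.0092 (s.e. 0.17) for Zic2 and 0.37 (s.e. 0.45) for Foxd3. For Zic2 the 95% interval of the difference ran from −0.32 to 0.34, and for Fgf5 from −1.67 to 1.81. Both intervals use the s.e. and a normal quantile, which makes them too narrow for so few libraries.

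Reads on introns, which can come from RNA not yet spliced, are given for the 3 genes that have introns, as intron RPM (intron reads scaled by the gene reads of the library). Otx2 had 1.02, 6.23 and 6.24 intron RPM in uninduced wild-type samples 1, 2 and 3 and 0.827, 1.09 and 1.06 in uninduced clones 8, 11 and 15. Samples 2 and 3 again stood above the other libraries, and sample 1 lay among the clones. After induction Otx2 had 0.548, 1.44 and 1.18 in wild-type samples and 0.280, 0.494 and 0.316 in the clones, so that its intron reads were lower in 3 of 3 pairs of each genotype. The intron RPM of Zic2 was 0.920, 4.60 and 5.37 in uninduced wild-type samples and 0.422, 0.829 and 0.461 in the clones. Sample 1 was just above clone 11, on 29 and 38 reads, and samples 2 and 3 were far above the rest. After induction Zic2 had 0.852, 4.29 and 3.65 in wild-type samples and 0.428, 0.757 and 0.701 in the clones, lower than before in 3 of 3 wild-type pairs and in 1 of 3 clones. Fgf5 had between 0 and 29 intron reads in a library, and its values are not compared. The library kit keeps the strand, but the sources used here do not say whether reads were counted by strand.

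The 6 genes were compared with their genomic surroundings, because chromosomes 14 and X had a shifted median in the clones, the latter after induction. Genes of chromosome 14, which carries Otx2 and Zic2, had a median ratio to the uninduced wild-type mean of 1.47 to 1.62 in the 3 uninduced clones and of 1.44 to 1.62 after induction (324 genes with at least 5 TPM). In wild-type libraries this median stayed between 0.948 and 1.01. On chromosomes 4 and 5 it was 0.963 to 1.09 in all ΔCdk8 libraries. On the X chromosome, which carries Sox3, it was 0.949 to 1.14 in uninduced clones and 0.598 to 0.729 in induced clones, against 0.304 to 0.390 in induced wild-type libraries (315 genes). Otx2 and Zic2 thus had ΔCdk8 over wild-type ratios of 0.301 and 0.224 on a chromosome whose median gene was higher in the clones. Of the 6 expressed genes within 1 Mb of Otx2, none had a lower ratio than Otx2, and their median was 1.76. Around Zic2 the median of 9 genes was 1.62, and the lowest was its paralogue Zic5, which lies next to Zic2, at 0.453. The median of 20 genes around Pou3f1 was 1.05 against 0.236 for Pou3f1. Around Foxd3 it was 1.32 over 10 genes, of which Ror1, at 0.114, was below the 0.423 of Foxd3. Sox3 had 0.168 against 0.940 for 3 neighbours, and the only expressed neighbour of Fgf5 had 1.40 against 0.120.

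**Figure D3:**
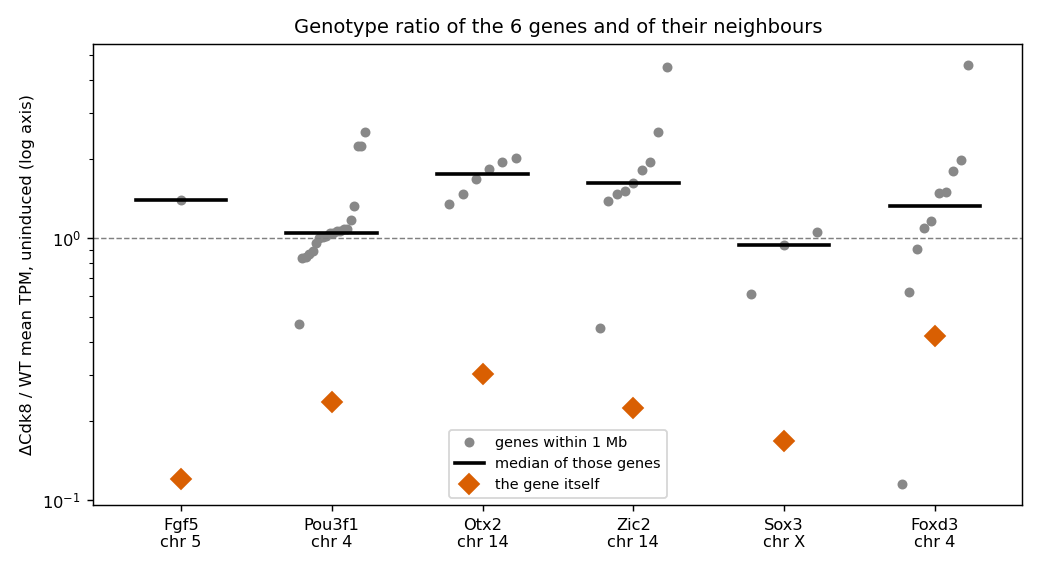
Ratio of mean TPM in uninduced ΔCdk8 over uninduced wild-type cells (vertical axis, log scale) for each of the 6 genes (orange diamonds) and for the expressed genes within 1 Mb of it (grey points, black bar at their median). Each of the 6 genes is below the median of its neighbours, and Ror1 near Foxd3 is the only neighbour with a lower ratio than the gene it surrounds.

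Over the 12 libraries the 6 genes varied together. Pearson's r of log2(TPM + 1) between pairs of them ranged from 0.627 (Zic2 and Sox3) to 0.951 (Fgf5 and Pou3f1) over 15 pairs, and Foxd3 was the gene least like Fgf5, Pou3f1 and Otx2. The points share the same libraries and the differences between groups, so these values describe the data and test nothing. Among 12130 genes with a mean of at least 1 TPM, the closest to Pou3f1 were Atic (r = 0.982), the X-linked kinase gene Pim2 (r = 0.979) and Ggct (r = 0.969). The closest to Otx2 were Bcor, an X-linked corepressor gene (r = 0.979), Vrtn (r = 0.962) and Trmt6 (r = 0.958). Zic2 was most like Aff3 (r = 0.979), Fam168b (r = 0.975) and an entry listed as Sumo3_1 (r = 0.969), and Foxd3 most like the cell cycle genes Ccnd1 (r = 0.969) and Cdk4 (r = 0.959) and the growth factor gene Gdf1 (r = 0.962). For Fgf5 they were Calcr (r = 0.967), Mettl13 (r = 0.964) and Fhl3 (r = 0.959), and for Sox3 Rrp8 (r = 0.956), Wdr1 (r = 0.944) and Zfp36l2 (r = 0.934). Pim2, the only gene here that is also in the list of primed genes below, had 482±271 TPM in uninduced wild-type and 50.4±16.8 TPM in uninduced ΔCdk8 cells. Ccnd1 had 124 TPM in the highest uninduced clone, which was clone 11 as for Foxd3, and 31.5 TPM in the lowest. With a pseudocount of 0.1 none of the 3 genes named for Fgf5, none for Sox3 and 1 of 3 for Foxd3 were found again, against 2 for Pou3f1, 2 for Otx2 and 3 for Zic2.

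Other genes of the same transition were read from lists of named genes. Among 20 other formative and primed genes, 19 were tested, and 14 of 19 had a negative log2 fold change in ΔCdk8 against wild-type uninduced cells, with a median of −0.40 against 0.03 for all genes. The 6 genes had a median of −2.27, and all 6 were negative. None of the 19 was called by edgeR, and 7 had an unadjusted p under 0.05, against 20.4% of all genes. DESeq2 called 5 lower, against 0.833%. Pim2 had −3.37 (s.e. 0.56), the Wnt effector Lef1 −2.88 (s.e. 0.78) and Sall2 −2.16 (s.e. 0.76), with adjusted p of 0.113, 0.154 and 0.198 by edgeR. In TPM, Lef1 had 31.4, 68.4 and 47.6 in wild-type samples 1, 2 and 3 and 1.64, 14.7 and 3.94 in clones 8, 11 and 15, with clone 11 again nearest to wild type. Sall2 had 3.87, 27.4 and 33.7 TPM in wild-type samples and 2.68, 7.87 and 5.44 TPM in the clones, and here sample 1 lay among the clones as it did for Fgf5 and Sox3.

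The naive pluripotency genes, which are lost when cells become primed, had mostly positive values in uninduced conditions and values of both signs after induction. Of 14 tested, 13 had a positive log2 fold change in the uninduced clones, with a median of 0.71, while after induction 7 were positive and 7 negative, with a median of 0.010. None was called by edgeR, and 5 had an unadjusted p under 0.05, against 20.4% of all genes. DESeq2 called 3 higher (Tbx3, Tfcp2l1 and Tcl1), against 1.8% of all genes called higher. After induction edgeR again called none, with 6 at an unadjusted p under 0.05, against 25.9% of all genes. DESeq2 then called 3 higher (Tfcp2l1, Prdm14 and Tcl1), against 3.83%, and 0 lower. Their edgeR values after induction were 1.32, 2.09 and 1.38 (adjusted p = 0.0534, 0.0754 and 0.0562). Before induction Tbx3 had 2.46 (s.e. 0.32, adjusted p = 0.101 by edgeR), Tfcp2l1 1.88 (s.e. 0.48, adjusted p = 0.147) and Tcl1 1.87 (s.e. 0.37, adjusted p = 0.124). Tfcp2l1 levels were 39.4, 16.9 and 10.01 TPM in uninduced wild-type samples and 91.9, 102 and 76.7 TPM in the clones, with no overlap and with sample 1 the highest of the wild-type libraries. In wild-type cells after induction, naive genes had a median of 0.61 and the other primed genes of −0.49, and edgeR called Tbx3 higher (2.33, s.e. 0.26, adjusted p = 0.00620, against 0.15% of all genes called higher) and the primed epithelial factor Grhl2 lower (−1.06, s.e. 0.13, adjusted p = 0.00890). In ΔCdk8 cells after induction the medians were 0.10 and −0.18, and edgeR without the block and DESeq2 called none of either list. With both tools, 3 other primed genes and 1 naive gene had an unadjusted p under 0.05. Of all 14832 genes, 392 did by edgeR and 497 by DESeq2. With the clone as a block, edgeR called 3 of the 19 other primed genes lower, Lef1 and Pim2 among them, against 1.27% of all genes. It called 0 naive genes. In wild-type cells the blocked fit called 4 other primed genes lower (2.48% of all genes) and 1 naive gene higher (206 of 14006 genes). DESeq2 called 5 other primed genes lower there (3.14%) and 2 naive genes higher (222 of 14006).

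**Figure D4:**
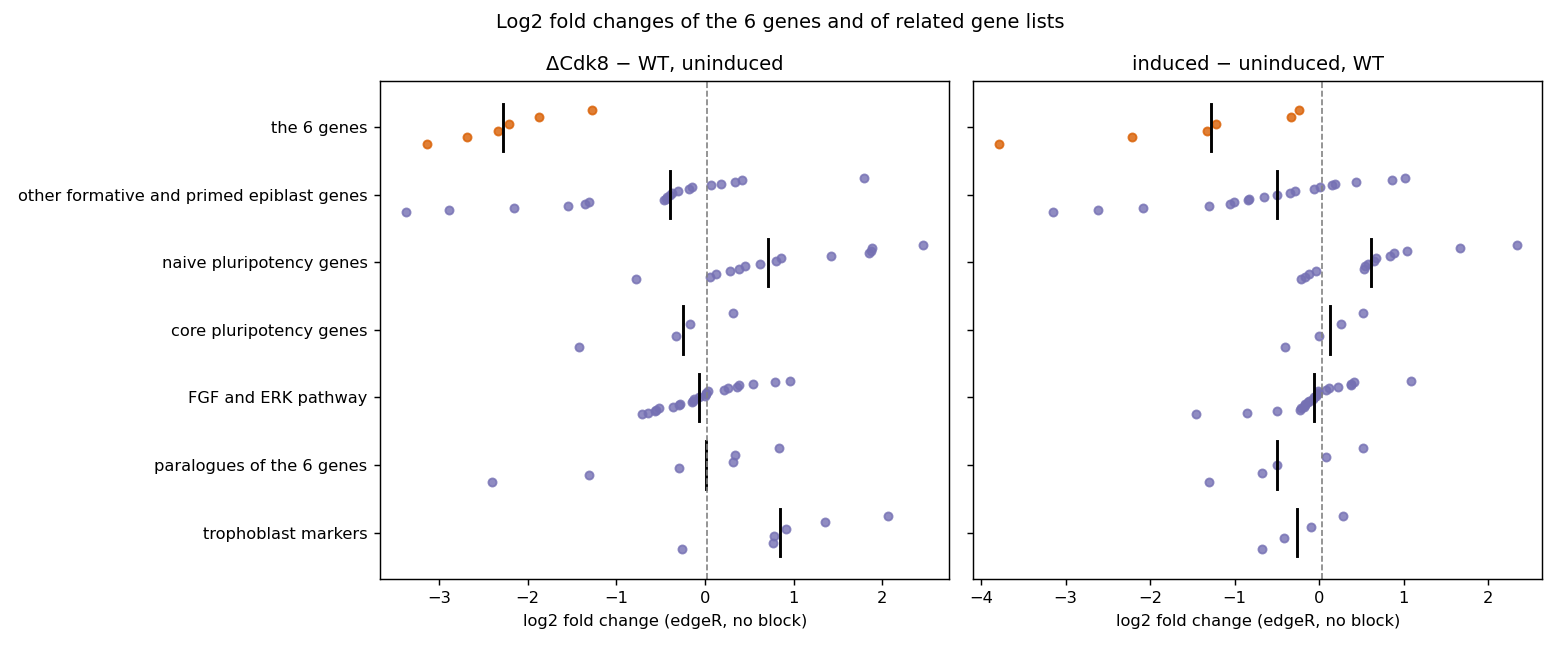
Log2 fold change from edgeR without a block (horizontal axis) of each tested gene in 7 lists, for ΔCdk8 against wild-type uninduced cells (left) and induced against uninduced wild-type cells (right), with a black bar at each list's median and a dashed line at the median of all genes. On the left the 6 genes (orange) have a median of −2.27, the other primed genes of −0.40 and the naive genes of 0.71.

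The general pluripotency genes and the FGF pathway were read in the uninduced genotype comparison as well. There 2982 of 14646 genes had an unadjusted p under 0.05 by edgeR (20.4%) and 3623 by DESeq2. DESeq2 called 0.833% of all genes lower. The 4 core pluripotency genes, of which edgeR called 0 and 1 had an unadjusted p under 0.05, had a median of −0.25 with 3 of 4 negative, from −1.42 for the RNA-binding protein gene Lin28a (s.e. 0.34, adjusted p = 0.140 by edgeR) over −0.33 for Sall4 to 0.32 for Sox2, and DESeq2 called Lin28a lower. The 23 genes of the FGF and ERK pathway had a median of −0.06, and 0 were called by edgeR or DESeq2, with 3 and 7 at an unadjusted p under 0.05. The largest were the receptor genes Fgfr3 and Fgfr4 at 0.96 and 0.79 and the feedback inhibitor Spry4 at −0.71. Of 15 paralogues of the 6 genes, 10 stayed below 1 TPM in all libraries and 6 were tested, with a median of 0.01, no call by edgeR and 2 at an unadjusted p under 0.05. Zic5 had −1.30 (s.e. 0.33, adjusted p = 0.147 by edgeR) and was called lower by DESeq2.

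Markers of cell types that could arise from ESCs were read in the same way beside ESC markers, and edgeR called no marker in any of the 5 comparisons. In the uninduced genotype comparison at most 1 marker of a list had an unadjusted p under 0.05 by edgeR, against 20.4% of all genes. DESeq2 called S100a4 higher there, against 1.8% of all genes. It also called 1 mesendoderm marker higher in the induced genotype comparison (3.83% of all genes). In wild-type induction it called 1 ESC marker higher, as it did 222 of 14006 genes. The largest changes among genes of at least 1 TPM on average, none called by edgeR, were 1.42 for Nanog and 0.86 for Esrrb among the ESC markers, −0.54 for Nes and −0.17 for Tubb3 in the neural list, and 1.77 for Eomes in the mesendoderm list. They were 2.22 for Gata4, −0.43 for Sox7 and 0.19 for Gata6 in the primitive endoderm list, 2.06 for Elf5, 1.35 for Krt8 and 0.92 for Tfap2c in the trophoblast list, and 5.61 for S100a4 and 0.63 for Thy1 in the fibroblast list. Their adjusted p by edgeR ranged from 0.113 for S100a4 to 0.935 for Gata6. Below this level, and named after their values were seen, the neural factors Sox1 and Pax6 had larger differences than Nes, of −2.40 (s.e. 0.86, adjusted p = 0.201 by edgeR) and −1.21 (s.e. 0.54, adjusted p = 0.257). Sox1 had 0.433, 2.79 and 2.31 TPM in uninduced wild-type samples and 0.110, 0.635 and 0.398 TPM in the clones, with sample 1 again low among the wild-type libraries. Beside the trophoblast markers, with a median of 0.85 in the uninduced genotype comparison, the neural progenitor markers had a median of −0.88 over 4 tested. Their summed level was 74.5 to 120 TPM in uninduced wild-type and 87.3 to 107 TPM in uninduced ΔCdk8 cells. The mesendoderm and primitive streak markers summed to 2.20 to 4.17 TPM in uninduced wild-type cells and to 5.01 to 14.5 TPM in the clones, mostly from Eomes, and T, Gsc, Foxa2 and Cer1 stayed below 1 TPM in all libraries. The primitive endoderm markers summed to 2.65 to 4.25 and 3.39 to 8.66 TPM, with Sox17, Pdgfra and Foxq1 below 1 TPM throughout. The fibroblast markers summed to 8.66 to 17.7 and 24.0 to 31.0 TPM, and S100a4, between 0 and 0.146 TPM in uninduced wild-type samples, had 1.50 to 7.11 TPM in the clones. Of the fibroblast markers, Col1a1, Col1a2, Postn and S100a4 were highest in clone 15 in both conditions, and Dcn and Thy1 were not. Clone 15 had 3.67 and 3.48 TPM of Col1a2 and 2.71 and 2.39 TPM of Postn before and after induction. In the other 10 libraries Col1a2 reached at most 0.874 and Postn at most 0.426 TPM. Dcn was listed at 0 in both libraries of clone 15. Thy1 had 10.6 and 13.5 TPM there, below the 18.8 to 31.2 TPM of clones 8 and 11. The part of these markers in the levels of the 6 genes was not tested.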

How the data were processed

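The study sequenced polyadenylated RNA from 12 mouse ESC libraries, made with a strand-keeping kit. With the CLC Genomics Workbench the authors mapped the reads to Ensembl's GRCm38 and deposited a table for every library. The deposited count columns (total, unique, exon and intron reads of each gene) are not normalised and entered the tests. Levels are the TPM values as deposited. RPKM values and fraction columns, also deposited, were not used. Groups, numbers and clones come from the sample titles.

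The main fit took all reads of a gene, with R 4.3.3 and edgeR 4.0.16 (TMM scaling, filterByExpr set to 10 reads as its count minimum and 15 as its total). All 6 genes passed this filter in all 5 comparisons. Fold changes over 2 with an adjusted p under 0.01 were called, which are the study's thresholds, and no block was used, as in the study. The test differed, since the study used a Wald test. Each s.e. was obtained from the log2 fold change and its F statistic. DESeq2 1.42.0, with a Wald test, was the alternative tool. Other filters, scalings and read types, a block for number or clone, and leaving out each replicate were also run. All p-values are two-sided, and exact permutation of 3 against 3 libraries cannot go below 0.1. Levels were handled in Python 3.11.15 with numpy 2.4.6 and pandas 2.3.3, and matplotlib 3.10.9 drew the figures. The fits were tested on simulated data.

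The clones are the same lines in both conditions. In wild-type cells, deviations from the group mean correlated between libraries of the same number (r of 0.487 to 0.640 over 14006 genes) and less between different numbers (at most 0.303), so numbers were taken to pair samples. For clones the same values were 0.759 to 0.853 and at most 0.0552. The sources used here do not say whether wild-type samples are separate cultures, so p-values may measure technical spread alone.

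The 6 genes, the gene lists (other primed, naive, core, FGF and ERK, paralogues and cell type markers) and the motifs were chosen with earlier results of these data known. Beyond the 6 genes and Cdk8, the rule names, from each list, genes past the threshold in any main comparison and up to 3 with the largest change in the uninduced genotype comparison at a mean of at least 1 TPM, and the 3 genes most like each of the 6. Genes called by DESeq2 or in the blocked fit, single markers and neighbours were named after their values were seen. Of the genes this rule names, 1 is not reported here.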

Additional observations from a re-analysis of the deposited data

How the results depend on the processing

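In edgeR with no block and no replicate left out, 0 of the 6 genes passed the threshold in any comparison. The same held with autosomal scaling, other filters, exon or unique reads, and all 12 libraries in a single fit. It also held for an adjusted p under 0.05 with no fold minimum. DESeq2 called 4 in the uninduced genotype comparison, 1 in the induced one and 2 in wild-type induction, and gave no p for Foxd3 in ΔCdk8 induction. With the replicate block 3 were called in wild-type induction and 2 in ΔCdk8 induction, and the block changed no call of the interaction. Without wild-type replicate 1, edgeR called 4 in wild-type induction, and 0 without replicate 2 or 3. Further settings were chosen after seeing the data. DESeq2 with 1 replicate left out called 1 to 6 in the uninduced genotype comparison (6 without clone 11) and 0 to 5 in the induced one (5 without clone 11). The block with a number left out called 0 to 4 in wild-type induction, 0 to 2 in ΔCdk8 induction and, without wild-type replicate 1, 2 in the interaction.

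Direction changed only for values that had not been called, and the cause was not tested. Leaving out clone 11 turned Sox3 in the induced genotype comparison to −1.64 (range over replicates left out −1.64 to 1.12) and to −1.67 with DESeq2. Foxd3 in wild-type induction became 0.090 without replicate 3 (range −0.69 to 0.090) and 0.12 with the block as well. In ΔCdk8 induction Foxd3 became 0.092 with the replicate block, 0.52 without clone 11 (range −0.39 to 0.52), and with the block 0.59 without clone 11 and 0.13 without clone 15. In the interaction, leaving out clone 11 gave −0.45 for Fgf5 (range −0.45 to 0.65), −0.022 for Otx2, 0.027 for Zic2 (range −0.18 to 0.027) and 0.81 for Foxd3 (range −0.40 to 0.81). The replicate block gave 0.0092 for Zic2 and 0.37 for Foxd3. The block without clone 11 gave −0.66 for Fgf5, −0.051 for Otx2, 0.12 for Zic2 and 0.87 for Foxd3, and without clone 15 −0.020 for Otx2 and 0.48 for Foxd3. Without wild-type replicate 1 the blocked Foxd3 value was 0.46. Without replicate 2 the block gave −0.054 for Fgf5, 0.11 for Zic2 and 0.56 for Foxd3, and without replicate 3 −0.34 for Fgf5 and 0.027 for Zic2. Low reads limit Fgf5 and Sox3 after induction, where single libraries hold 2 to 5 reads on exons.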
